A study of Homo sapiens with 12 samples.

Results

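Cells enter senescence when cyclin-dependent kinases are held back, and the 7 genes CDKN1A, CDKN1B, CDKN1C, CDKN2A, CDKN2B, CDKN2C and CDKN2D encode the proteins that do this. The 3 CDKN1 genes encode the Cip/Kip inhibitors p21, p27 and p57, which act on several cyclin-CDK complexes. The 4 CDKN2 genes encode the INK4 inhibitors p16INK4a, p15INK4b, p18INK4c and p19INK4d, which act on CDK4 and CDK6. They were taken by name, as 7 of 20033 protein-coding genes, and all 7 were found in the annotation (GENCODE release 44, hg38). Trimethylation of lysine 27 of histone 3 (H3K27me3) is placed by the Polycomb complex PRC2 at silent genes. The neighbours CDKN2A and CDKN2B are a known Polycomb target in dividing cells, where the mark keeps them silent, and they are induced in senescent cells. CDKN2A also encodes p14ARF, a positive regulator of p53, from a start site and first exon of its own.

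The mark was mapped by ChIP-seq in SH-SY5Y, a human neuroblastoma line expressing Tau (WT), and in the Tau knock-out (Tau-KO) lines 231K and 232P, which were made from it and lack MAPT. Each genotype had 2 replicates, and each of the 6 ChIP samples had its own list of peaks, that is, of regions where the precipitated reads exceeded the local background. Every peak in both lists labelled 232P bears a name that starts with 231P, which the study uses for another Tau-KO line, so which line these 2 lists come from is uncertain, and 232P stands here for the label. The labels name no treatment. Each knock-out genotype is 1 line, so line and knock-out cannot be told apart within it, and neither the genotype nor the cell type could be checked from peak lists.

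The lists of WT replicates 1 and 2 held 285826 and 222191 peaks, those of 231K held 271413 and 212347, and those of 232P held 147118 and 199677. The number of reads is not in the lists. The relative depth recovered from peak heights, in percent of the deepest sample, was 100 and 66.6 for WT, 94.8 and 68.7 for 231K, and 68.1 and 56.9 for 232P. 232P replicate 1 stood apart, with 70.3 Mb of the genome covered by peaks against 197 to 290 Mb in the other 5 samples, and values without it are given beside those it decides most, a choice made in part after the data were seen. Peaks were wider in replicates 2, with a median width of 666 to 688 bp against 335 to 441 bp in replicates 1. A region without a peak did not pass the threshold at the depth of its list, and fewer cells with the mark cannot be told apart from less mark per cell.

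Of the 7 genes, CDKN2A and CDKN2B had H3K27me3 peaks in all 6 samples, and the other 5 had none in any sample. A gene was taken with 10 kb on each side. Of all 20033 protein-coding genes, 4431 (22.1%) had a peak in this window in all 6 samples, 13048 (65.1%) had none in any sample, and 2554 had one in 1 to 5 samples. No inhibitor gene was in that last class, so none gained or lost its only peaks between genotypes. The plot of covered percent and of the distance to the nearest peak shows both groups.

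**Figure D1:**
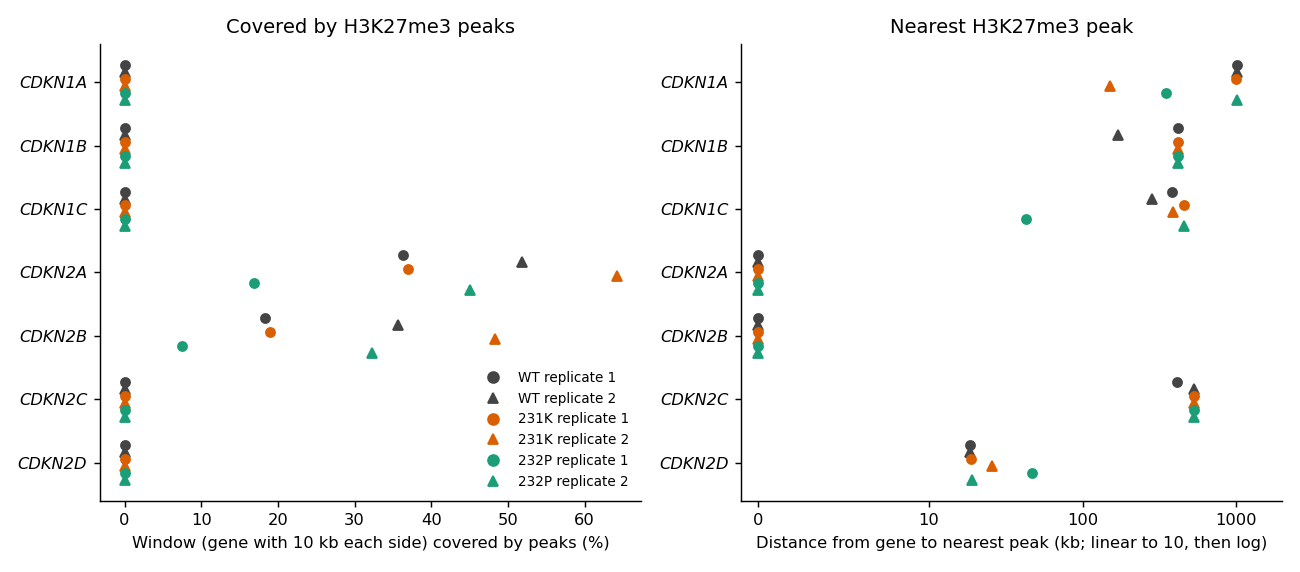
Left, percent of each gene with 10 kb on each side that was covered by H3K27me3 peaks; right, distance in kb from the gene to its nearest peak (linear up to 10 kb, then logarithmic). Each point is a sample, with colours for genotypes and circles or triangles for replicates 1 or 2. Only CDKN2A and CDKN2B lie above 0% and at a distance of 0 kb.

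The CDKN2A and CDKN2B results turn on 3 start sites, so the promoter sequence before each is shown. All 3 are from RefSeq (GRCh38.p14), run 5′ to 3′ on the minus strand, and reach from 250 to 11 bases before the start site. CG dinucleotides, the sites of DNA methylation, are in capitals.
p16INK4a (CDKN2A), chr9:21974868-21975107: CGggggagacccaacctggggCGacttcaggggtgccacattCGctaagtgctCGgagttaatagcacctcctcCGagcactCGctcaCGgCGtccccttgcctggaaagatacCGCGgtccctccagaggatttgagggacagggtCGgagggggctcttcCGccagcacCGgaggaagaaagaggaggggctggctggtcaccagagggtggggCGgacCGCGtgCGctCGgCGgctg
p14ARF (CDKN2A), chr9:21995335-21995574: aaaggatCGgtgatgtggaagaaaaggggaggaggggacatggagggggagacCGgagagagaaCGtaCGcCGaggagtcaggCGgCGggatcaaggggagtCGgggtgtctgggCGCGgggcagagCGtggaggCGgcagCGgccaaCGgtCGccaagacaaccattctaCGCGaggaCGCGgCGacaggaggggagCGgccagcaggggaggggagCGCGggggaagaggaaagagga
p15INK4b (CDKN2B), chr9:22009316-22009555: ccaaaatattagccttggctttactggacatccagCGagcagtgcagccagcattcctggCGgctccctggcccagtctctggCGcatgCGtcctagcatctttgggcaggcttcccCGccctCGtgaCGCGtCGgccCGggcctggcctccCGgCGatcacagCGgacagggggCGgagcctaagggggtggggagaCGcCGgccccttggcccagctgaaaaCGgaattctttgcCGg
These stretches of 240 bases held 19, 23 and 18 CG, in the order shown. Over the full promoter window of 300 bases, which runs from 250 bases before to 50 after the start site, CG was counted 26 times for p16INK4a, 28 times for p14ARF and 25 times for p15INK4b. A median promoter among 35116 held 14, and 30.1%, 26.2% and 32.0% of them held at least as many as these 3. Of the members without peaks, CDKN1A and CDKN1B held 29 each, CDKN2D held 36, and the 3 windows of CDKN2C held 8, 37 and 11. CDKN1C was not matched.

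CDKN2A (ENSG00000147889.18) lies on the minus strand of chromosome 9 from 21967752 to 21995301, and CDKN2B (ENSG00000147883.12) on the same strand from 22002903 to 22009305. Their windows overlap, so the 2 genes are not independent, and a joint window of 61.554 kb (chr9:21957752-22019305) was also used. Peaks numbered 25 and 18 here for replicates 1 and 2 of WT, 31 and 19 for those of 231K, and 20 and 19 for those of 232P. Peaks lay over the 3′ part of CDKN2A and the sequence after it, and over CDKN2B, with a wide opening over the 5′ part of CDKN2A and just past its 5′ end. This can be seen in the map of peaks over both genes.

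**Figure D2:**
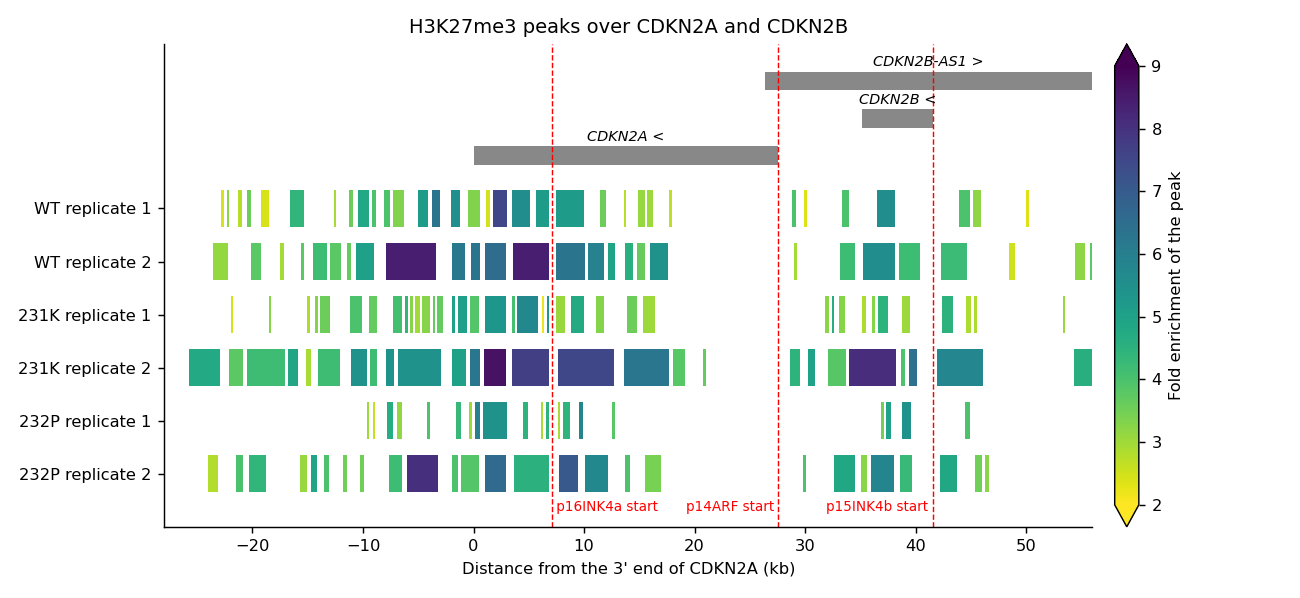
H3K27me3 peaks of the 6 samples (rows) by distance in kb from the 3′ end of CDKN2A, coloured by fold enrichment; grey bars are genes with their direction and dashed red lines are start sites. No peak of any sample lies on 1 of the 3 start sites, and the widest opening holds the p14ARF start.

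No sample had a peak on any of the 3 start sites, but the surroundings differed between them. The p16INK4a start at 21974857 sat in a narrow opening of 644 and 631 bp in WT, 679 and 749 bp in 231K, and 831 and 914 bp in 232P. Peaks lay on both sides of it, the nearer edge 245 to 309 bp away, and all 6 samples had a peak within 1 kb. With an overlap of at least 500 bp, or with only peaks whose -log10 q-value reached 5, it was 5 samples. Among 21597 RefSeq start sites of protein-coding genes, 1707 (7.90%) had a peak within 1 kb in all 6 samples, and 34.7% of these had no peak on the start base in any sample.

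The 1 kb on each side of the p16INK4a start was covered to 67.8% and 68.4% in WT, to 50.6% and 62.5% in 231K, and to 38.1% and 54.3% in 232P. All 4 Tau-KO samples were below both WT samples, with means of 51.4% ± 10.2 (SD, n = 4) against 68.1% ± 0.459 (SD, n = 2). This site was singled out after its values were seen. The exact permutation test, two-sided, gave p = 0.133 for Tau-KO against WT, where 0.067 is the smallest possible, and p = 0.33, the smallest possible, for either line alone. Of 3408 start sites with a peak nearby in at least 2 samples, 12.7% were likewise lower in every Tau-KO sample. The share was 19.7% for both 231K samples and 37.8% for both 232P samples. These start sites can include some with peaks in the WT samples only, where the filter itself fixes this order. The shares therefore do not show how common the order is among start sites with a peak in all 6 samples. Without 232P replicate 1, the 3 Tau-KO samples had a mean of 55.8% ± 6.11 (SD, n = 3), with p = 0.2 in the exact permutation test, where 0.1 is the smallest possible. Every remaining sample was then lower than both WT samples at 17.4% of start sites for Tau-KO and at 51.0% for 232P, with the same limit. The highest fold enrichment within 1 kb was 5.16 and 8.41 in WT, 5.33 and 7.71 in 231K, and 4.47 and 7.06 in 232P, and the groups overlapped.

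The p14ARF start at 21995324 had no peak within 1 kb in any sample. It lay in an opening of 10850 and 11411 bp in WT, 15419 and 7626 bp in 231K, and 24082 and 12778 bp in 232P. The start of the antisense transcript CDKN2B-AS1 (ANRIL) at 21994791 lay in the same opening. The 7627 bp that were free of peaks in all 6 samples (21988758 to 21996384) formed the longest such stretch of the joint window, with 46.3% GC and 38.3 CG per kb against 41.1% and 19.6 for the whole window. Of 20033 protein-coding genes, 15637 (78.1%) had no peak within 1 kb of any start site in any sample.

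The CDKN2B start at 22009305 was between these. Its opening measured 5770 and 1910 bp in WT, 2899 and 1752 bp in 231K, and 4919 and 2546 bp in 232P. A peak came within 1 kb in WT replicate 2, in both 231K samples and in 232P replicate 2, that is in 4 of 6 samples. With an overlap of at least 500 bp, or with only peaks whose -log10 q-value reached 5, this held in 1 sample. Peaks reached over 0 to 31.4% of the 2 kb. The genotypes overlapped, and p was at least 0.533 in the exact permutation test for each of the 4 contrasts. The 1528 bp free of peaks in all samples (22008149 to 22009676) had 55.1% GC and 64.8 CG per kb. Stretches without peaks were not all rich in CG: the 8 longest of the joint window ranged from 28.3 to 62.4% GC and from 0 to 70.5 CG per kb.

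The covered length of the joint window was the main measure of how much of the locus was marked. It was 19.8 and 30.01 kb in WT, 20.01 and 36.5 kb in 231K, and 9.58 and 25.6 kb in 232P. In each genotype, replicate 2 was covered more than replicate 1, and the 3 genotypes overlapped. The means were 24.9 ± 7.21 kb for WT, 28.3 ± 11.7 kb for 231K and 17.6 ± 11.3 kb for 232P (SD, n = 2 each). 231K thus held 1.13 times the WT length and 232P 0.706 times, and the groups overlapped in both contrasts (exact permutation test, two-sided, p = 0.667 each, where 0.33 is the smallest that 2 against 2 samples allow). For the 4 Tau-KO samples together, the ratio was 0.920 (p = 0.8 in the same exact test, where the smallest is 0.067), and 231K held 1.61 times the length of 232P (exact p = 0.667).

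Single libraries and the threshold decided the size of these ratios. Without 232P replicate 1, 232P against WT was 1.03, Tau-KO against WT was 1.10 and 231K against 232P was 1.10. Without 231K replicate 2, 231K against WT was 0.803, and without WT replicate 1 it was 0.942. With only peaks whose -log10 q-value reached 5, 232P against WT was 0.353 and 231K against 232P was 3.28 (exact p = 0.667 each). Set against the WT sample of the same number, 231K had 1.01 times its covered length in replicate 1 and 1.22 times in replicate 2. For 232P, these were 0.484 and 0.853 times. Each 231K sample was thus above the WT sample of the same number, in replicate 1 by a narrow margin, and each 232P sample was below. The labels do not establish this pairing.

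Over the genome, the covered length was 0.981 times that of WT in 231K and 0.568 times in 232P (0.853 times without 232P replicate 1), so the ratio at the locus was above that of the whole list in either line. With the covered length divided by that of the whole list, a scale added after the data were seen, 232P was at 1.29 times WT and all Tau-KO samples together at 1.22 times (exact permutation test, two-sided, p = 0.33 and p = 0.27). On this scale, 231K was at 0.885 times 232P, beside 1.61 times for the covered length itself. The direction for 232P, for both lines together and for 231K against 232P therefore depended on the scale.

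**Figure D3:**
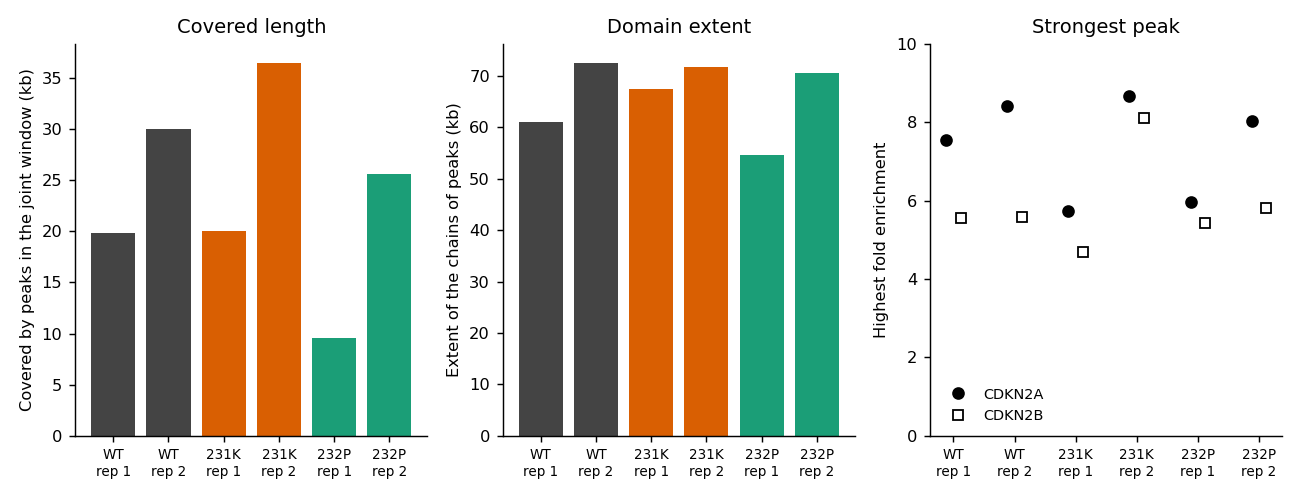
Covered length of the joint window (left) and extent of the chains of peaks (middle), in kb, and highest fold enrichment in the windows of CDKN2A and CDKN2B (right), for each sample; each bar or point is 1 sample. 232P replicate 1 has the lowest covered length (9.58 kb) and 231K replicate 2 the highest (36.5 kb), and the genotypes overlap in all 3 panels.

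The extent of the domain varied less between samples than its covered length. Peaks no more than 5 kb apart were joined to chains, and the chains over the 2 genes spanned 61.0 and 72.6 kb in WT, 67.5 and 71.8 kb in 231K, and 54.6 and 70.7 kb in 232P. Means were 66.8 ± 8.22 kb, 69.6 ± 3.04 kb and 62.6 ± 11.4 kb (SD, n = 2 each). The ratio to WT was 1.04 in 231K (exact permutation test, two-sided, p = 1), 0.938 in 232P (exact p = 0.667) and 0.990 in both lines together (exact p = 0.933). With only peaks whose -log10 q-value reached 5, the ratio for 232P was 0.586 (exact p = 0.667). Without 232P replicate 1, it was 1.06 for 232P and 1.05 for both lines together. In each of 5 samples the domain began 22.0 to 25.7 kb before the 3′ end of CDKN2A, and in 232P replicate 1 it began 9.63 kb before.

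How the domain went on past CDKN2B rested on the joining distance. With peaks joined over 10 kb, the chains over the 2 genes spanned 297 kb in both WT samples and 274 and 283 kb in 231K, where they ran into peaks over CDKN2B-AS1 and beyond. They stayed at 54.6 and 70.7 kb in 232P. The ratio was then 0.211 for 232P against WT (p = 0.33, the smallest this exact permutation test can give). For this joint span, both 232P samples and both 231K samples lay below WT. Shares were taken gene by gene, over 3341 genes with such a chain over the gene in all 6 samples. The extent was below WT in both 232P samples for 57.5%, in both 231K samples for 21.6% and in all 4 for 17.2%. Taken singly in this way, CDKN2A was in none of these classes, with mean differences from WT of 120 kb in 231K and -9.27 kb in 232P. CDKN2B was lower in both 232P samples (-233 kb) but not in both 231K samples (7.0 kb). Without 232P replicate 1, the ratio of the joint span for 232P against WT was 0.238. For the joint span, the ratio of both lines together to WT was 0.575 (exact p = 0.133), and 231K reached 4.45 times the extent of 232P (exact p = 0.33). Peaks were present there in 232P as well. The part of CDKN2B-AS1 beyond CDKN2B (118.8 kb) was covered to 39.6% and 57.4% in WT, 34.9% and 63.2% in 231K, and 8.66% and 46.7% in 232P.

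On the other side, the mark stopped. MTAP, which encodes an enzyme of methionine salvage, had no covered base in any sample. A stretch of 143 to 160 kb without peaks separated the domain from the next marked block, whose near edge lay 167 to 169 kb before the 3′ end of CDKN2A in all 6 samples. That edge differed by less than 3 kb between samples of any genotype. The wide map of the region shows it.

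**Figure D4:**
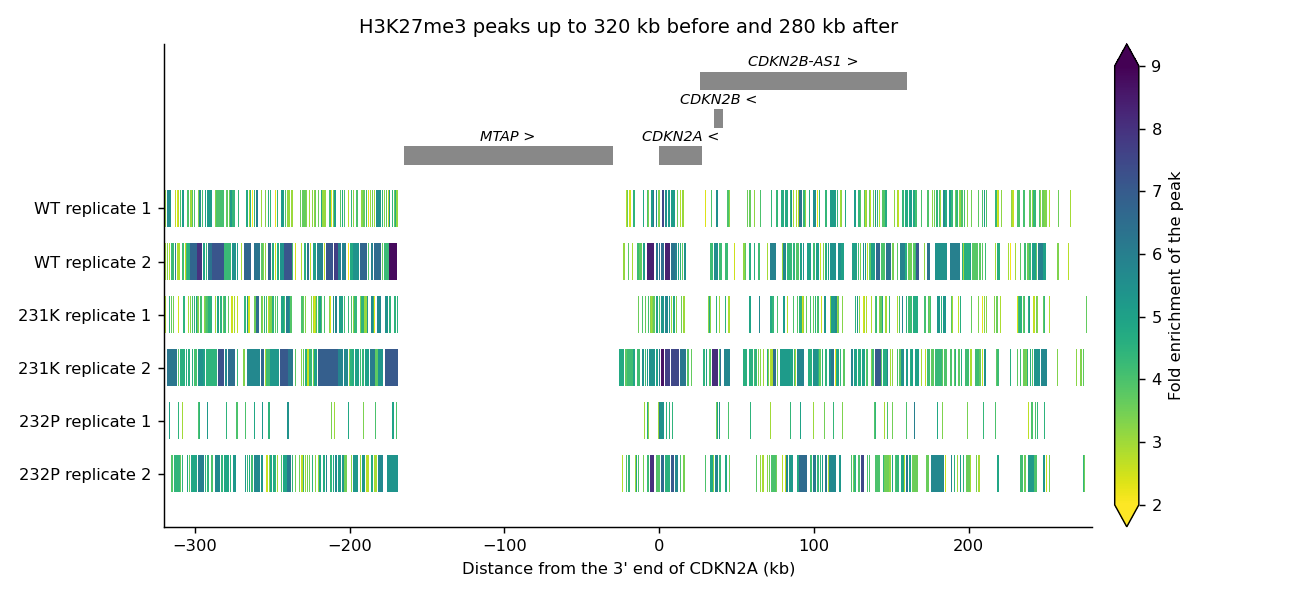
H3K27me3 peaks of the 6 samples (rows) by distance in kb from the 3′ end of CDKN2A, coloured by fold enrichment; grey bars are genes with their direction. All samples are free of peaks over MTAP, and peaks go on past CDKN2B-AS1 in all samples, most sparsely in 232P replicate 1.

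Base by base, 32.8% of the joint window was covered in no sample and 6.57% (4046 bp) in all 6. The longest stretch covered in all samples measured 1122 bp, from 21969548 to 21970669 in the 3′ part of CDKN2A. Of the bases covered in 232P replicate 1, 91.4% were covered in WT replicate 2 and 75.8% in WT replicate 1. Conversely, 29.2% and 36.7% of the covered bases of WT replicates 2 and 1 were covered in 232P replicate 1. The sparse list thus lay mostly inside the regions marked in WT cells.

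CDKN2A alone had 36.4% and 51.8% of its window covered in WT, 37.0% and 64.2% in 231K, and 16.9% and 45.1% in 232P. The order of the means was 231K (50.6% ± 19.2), WT (44.1% ± 10.9) and 232P (31.0% ± 19.95; SD, n = 2 each), and the samples of neighbours in this order overlapped, although 232P was below WT in both same-numbered pairs. Among the 4431 genes marked in all samples, CDKN2A ranked at percentiles 64.3 and 67.6 in WT, 67.8 and 75.3 in 231K, and 73.3 and 74.8 in 232P. All 4 Tau-KO samples ranked above both WT samples, by a narrow margin in 231K replicate 1, while the covered percent itself overlapped. The exact permutation test, two-sided, gave p = 0.067, the smallest possible, for Tau-KO against WT, and this order was singled out after its values were seen. Of the 4431 genes, 3.84% ranked higher in every Tau-KO sample than in both WT samples, 14.2% in both 231K samples and 14.9% in both 232P samples.

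CDKN2B was covered less. Its values were 18.3% and 35.7% in WT, 19.0% and 48.3% in 231K, and 7.499% and 32.3% in 232P, with means of 26.99% ± 12.3, 33.6% ± 20.7 and 19.9% ± 17.5 (SD, n = 2 each). The order of genotypes was that of CDKN2A, again with overlapping samples. It ranked between percentiles 42.7 and 62.3 of the marked genes, and the genotypes overlapped.

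The fold enrichment is the ratio of reads at the summit of a peak to the local background. In the window of CDKN2A, the highest value was 7.54 and 8.41 in WT, 5.74 and 8.67 in 231K, and 5.97 and 8.03 in 232P. Replicate 1 of either Tau-KO line was below both WT samples, but 231K replicate 2 was above them. The strongest peak was not at the same place in all samples: counted from the 3′ end of CDKN2A into the gene, its summit was at 2.18 and -6.58 kb in WT, 4.75 and 2.43 kb in 231K, and 0.511 and -3.54 kb in 232P, where negative values are past the gene. In WT replicate 2, another peak, inside the gene at 3.56 to 6.85 kb, had the same fold enrichment (8.41) and -log10 q-value (12.1). The position given for this sample is therefore 1 of these tied peaks. In the window of CDKN2B, the highest value was 5.56 and 5.59 in WT, 4.69 and 8.10 in 231K, and 5.43 and 5.81 in 232P. A single sample, 231K replicate 2, was well above the rest.

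The -log10 q-value states how far a peak stands out given the depth. Its highest value for CDKN2A was 10.2 and 12.1 in WT, 6.29 and 16.0 in 231K, and 5.26 and 10.9 in 232P. For CDKN2B it was 6.04 and 6.45 in WT, 4.87 and 12.2 in 231K, and 4.49 and 6.23 in 232P. Ranked among all peaks of its own list, the strongest CDKN2A peak was at percentile 99.1 in both WT samples, at 92.6 and 99.4 in 231K, and at 94.8 and 99.6 in 232P. Percentiles differed between Tau-KO and WT by -2.46 for CDKN2A (exact permutation test, two-sided, p = 0.467) and by 0.858 for CDKN2B (exact p = 0.733). The CDKN2A difference was -1.12 without 231K replicate 1. For CDKN2B the direction turned, to -0.794 without WT replicate 2, -1.03 without 231K replicate 2 and -0.785 when peaks were ranked by fold enrichment.

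In the limma fit across all genes, neither CDKN2A nor CDKN2B passed the test in any contrast. This fit compared the covered percent of 6146 genes with a peak in at least 2 samples, and the log2 highest fold enrichment of 4431 genes with a peak in all 6. With Benjamini-Hochberg adjustment, 0 genes (0%) passed 0.05 in each of the 4 contrasts on either measure. A replicate block changed this for Tau-KO against WT on covered percent, where 9 genes passed, all lower, with neither CDKN2A nor CDKN2B among them. At an unadjusted p under 0.05, there were 179 genes for 231K against WT, 604 for 232P against WT, 286 for Tau-KO against WT and 433 for 231K against 232P on covered percent. On fold enrichment, there were 120, 255, 109 and 476 in the same order. With the replicate number as a block, these counts were 359, 2634, 959 and 2477 on covered percent and 215, 448, 187 and 812 on fold enrichment. On simulated data, this fit missed every change set in fold enrichment and the larger part of those set in covered percent, so a lack of calls does not show that genes were alike.

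For 231K against WT, the difference in covered percent was 6.48 points for CDKN2A (95% interval -29.7 to 42.7) and 6.64 for CDKN2B (-28.6 to 41.9), with an adjusted p of 1.00 in limma for both. The median over all tested genes was -0.06 and their 95th percentile was 5.47, so both estimates were above that percentile. The tested genes were not matched on coverage and include sparsely covered ones, such as CDK4 (2.39 to 4.68% covered). The percentile is thus not one among genes of like coverage. The place of both estimates above it rested on single samples and on the settings. The estimates were -7.13 and -7.997 without 231K replicate 2 and -1.24 and -2.05 without WT replicate 1, CDKN2A was at 0.835 when only peaks whose -log10 q-value reached 5 were used, and CDKN2B was at 0.593 without the flanks. For 232P against WT, the difference was -13.1 points for CDKN2A (-49.3 to 23.1, adjusted p = 0.589) and -7.11 for CDKN2B (-42.4 to 28.2, adjusted p = 0.762), beside a median of -6.575. These 2 values were 1.03 and 5.28 without 232P replicate 1, and 8.56 and 7.85 under quantile normalization. For Tau-KO against WT, the difference was -3.30 and -0.235, beside a median of -3.28, and 3.75 and 5.96 without 232P replicate 1. Under quantile normalization, the Tau-KO values were 7.23 and 6.87. The intervals of the fit without these changes take in losses and gains of more than 20 points in each of these contrasts. With the replicate number as a block in limma they were narrower, at -8.16 to 21.1 for CDKN2A and -6.23 to 19.5 for CDKN2B in 231K against WT, and at -27.7 to 1.56 and -19.98 to 5.76 in 232P against WT. Every one of them took in 0.

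With all samples, CDKN2A was covered 19.6 points more in 231K than in 232P (95% interval -16.6 to 55.8, adjusted p = 0.512 in limma) and CDKN2B 13.7 points more (-21.5 to 49.01, adjusted p = 0.578), beside a median of 5.84 for all tested genes. The differences were 5.45 and 1.36 points without 232P replicate 1, and under quantile normalization they were -2.65 and -1.96. With the replicate number as a block in limma, the interval was 4.92 to 34.2 for CDKN2A and 0.871 to 26.6 for CDKN2B, and the adjusted p of 0.0910 and 0.112 stayed above the threshold.

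On highest fold enrichment, neither gene passed the test. For CDKN2A, the log2 difference from WT was -0.17 in 231K and -0.20 in 232P. For CDKN2B, it was 0.15 and 0.01. The sign for 231K rested on single samples: CDKN2A was at 0.12 without 231K replicate 1, and CDKN2B at 0.54 without replicate 1 and -0.25 without replicate 2. So did the sign for 232P: CDKN2A was at 0.0116 without 232P replicate 1, and CDKN2B also changed sign when single samples were left out. The medians of all genes were 0.07 and -0.16, and the lowest adjusted p of either gene in these 2 limma contrasts was 0.639 over all settings run.

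**Figure D5:**
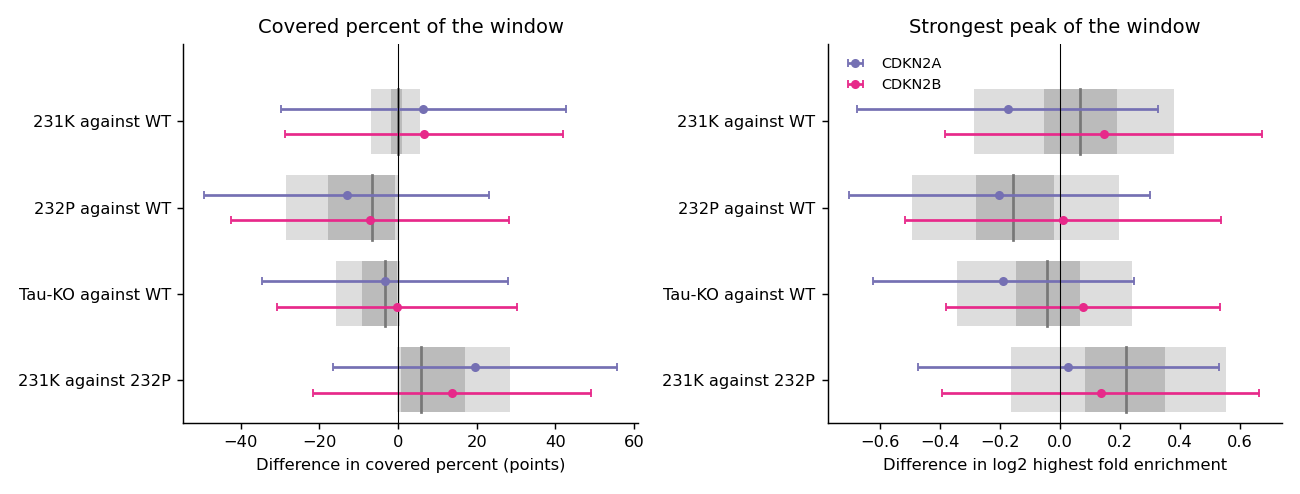
Differences between genotypes (rows) in covered percent, in points (left), and in log2 highest fold enrichment (right). Points are the limma estimates of CDKN2A and CDKN2B with 95% intervals; light and dark grey bars span the 5th to 95th and the 25th to 75th percentiles of all tested genes, with the median as a line. Every interval of both genes includes 0.

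Neither gene had groups without overlap in any contrast, on covered percent or on highest fold enrichment. Over the 6146 genes tested, 11.7% were lower in both 231K samples than in both WT samples, 48.8% in both 232P samples and 9.06% in all 4 Tau-KO samples. Higher in both 231K samples were 5.03%. The shares of genes higher than WT were 0.553% for 232P and 0.13% for Tau-KO. Of the 231K samples, both were above both 232P samples in 38.5% of genes and below in 0.667%. On highest fold enrichment, over 4431 genes, the shares lower than WT were 8.31% for 231K, 34.9% for 232P and 5.17% for Tau-KO. The shares higher were 18.6%, 4.58% and 2.21%, and 231K was above 232P in 42.4% and below in 2.84%. CDKN2A and CDKN2B were in none of these classes. Without 232P replicate 1, the shares lower than WT were 52.1% for 232P and 10.3% for Tau-KO on covered percent, and 2171 and 290 (6.54%) of 4431 genes on fold enrichment, again with neither gene among them.

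CDKN1A, CDKN1B, CDKN1C and CDKN2C lay apart from the mark. CDKN1A, which encodes p21, the inhibitor induced by p53, had its nearest peak 1003 to 1007 kb away in 4 samples, 151 kb away in 231K replicate 2 and 349 kb away in 232P replicate 1. For CDKN1B, the gene of p27, it was 416 to 418 kb in 5 samples and 170 kb in WT replicate 2. CDKN1C, the imprinted gene of p57, had its nearest peak at 282 to 459 kb in 5 samples and at 42.5 kb in 232P replicate 1. CDKN2C, the gene of p18INK4c, was 412 to 530 kb from its nearest peak. In none of these 4 genes did both samples of a genotype have a nearer peak than all other samples.

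CDKN2D, the gene of p19INK4d on chromosome 19, came closest of the inhibitor genes without peaks in every sample except 232P replicate 1, where CDKN1C was closer (42.5 kb). The nearest peak to CDKN2D was 18.5 and 18.4 kb away in WT, 18.8 and 25.9 kb in 231K, and 46.9 and 19.1 kb in 232P. Within 50 kb on each side, it had 4 and 6 peaks in WT, 3 and 4 in 231K, and 2 in each 232P sample, which covered 0.850 to 2.99% of that span.

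Of 41 genes of the G1/S machinery, the pocket proteins and E2F factors, the p53 axis and Polycomb, 31 (75.6%) had no peak in the window in any sample, beside 65.1% of all protein-coding genes, and 4 had one in all 6. These 4 were CDK4, CCND2, E2F5 and RING1, a share of 9.76%, beside 22.1% of all protein-coding genes. All 13 pocket protein and E2F genes and all 6 genes of the p53 axis were free of peaks within 1 kb of their start sites, as were 78.1% of all protein-coding genes. So were the PRC2 genes EZH2, SUZ12 and EED, which had none in the window either.

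CCND2, which encodes cyclin D2, a partner of CDK4 and CDK6, was the most marked of the list. It was covered to 72.5% and 79.2% in WT, 68.2% and 78.0% in 231K, and 56.4% and 64.0% in 232P, and it was the only gene of the list with a peak within 1 kb of a start site in all 6 samples. Both 232P samples were below both WT samples, as in 48.8% of the 6146 tested genes. Its difference of -15.7 points did not pass (adjusted p = 0.470 in limma).

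CCNA1, the gene of cyclin A1, had a peak within 1 kb of a start site in both WT samples and in 231K replicate 2. The covered percent of its window was 1.92% and 1.72% in WT, 0% and 1.10% in 231K, and 0% in both 232P samples. It was named for its start-site peaks in both WT samples, which largely fixes WT as the higher group, so nothing is read from this order. Of the 9 genes of the list that could be tested, 0 passed in any contrast.

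Some genes on other chromosomes had a coverage over the 6 samples close to that of the inhibitor locus. They were picked for this closeness, so it does not show that the locus is typical of marked genes. By the sum of absolute differences in covered percent over the 6 samples, the genes most like the joint window were SPATA19 (12.4 points), TBC1D8B (14.5), SYCP1 (15.6), TTC33 (16.9) and SLC22A9 (17.7). For CDKN2A, they were DGAT2L6 (11.4 points), SLC38A4, KRTAP9-1, KRT222 and CHST4 (18.3). For CDKN2B, they were CLRN1 (9.66 points), RHOJ, OR6C65, OR52H1 and COL24A1 (18.3). SPATA19, for example, was covered to 34.5% and 48.2% in WT, 32.3% and 60.6% in 231K, and 11.2% and 45.1% in 232P.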

How the data were processed

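H3K27me3 ChIP-seq peak lists of 6 samples were analysed, grouped by the labels, whose replicates A and B are called 1 and 2. The 6 input samples were not analysed here. After trimming (trimmomatic) and BWA alignment to hg38, the authors called peaks in each sample by MACS (version 2). They name the broadPeak setting, but the lists have the columns of narrowPeak. They also hold more peaks than the methods state, so they may not be the peak sets the authors went on to use. Threshold, duplicates and control are not given in the sources used here. The tool names BWA and deepTools are in the submitters' processing notes. Samples are named by label, also the lists labelled 232P, whose peak names all start with 231P. The deposited fold enrichment is a ratio to the local background, and the deposited -log10 columns give p-value and q-value at the summit. No unit is normalized between samples. The deposited lists hold no read counts, so no counting interval was given.

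Covered bases, chains of peaks (gaps up to 5 kb) and nearest peaks were computed with Python (3.11.15), and summit heights were recovered from fold enrichment and p-value (within 0.001 for 100% of peaks). Single values were compared by exact permutation tests. All genes were compared with limma (3.58.1, trend) in 1 fit over 3 genotypes, with Benjamini-Hochberg adjustment and a threshold of 0.05. This replaces the authors' limma on read counts, and the p-values measure the spread between samples of 1 line each. Covered bases, summit heights and limma were tested on simulated data. The members, the pathway list and the tests were chosen with earlier results of these data known. Named were the 7 members, genes within 200 kb, genes of the pathway list with a peak at a start site in both samples of a genotype, and the 5 genes most alike. Unnamed transcripts and pseudogenes near the locus are left out. CDK4, E2F5, RING1 and the PRC2 genes were named after their values were seen. Alternatives were stricter q-values, an equal number of peaks (147118), other flanks, joining distances and overlaps, quantile normalization, the replicate block and leaving out each sample.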

Additional observations from a re-analysis of the deposited data

How the results depend on the processing

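The covered length of the joint window reversed when divided by that of the whole list, to 1.29 for 232P against WT, 1.22 for Tau-KO against WT and 0.885 for 231K against 232P. A -log10 q-value of 5 or more is called the strict threshold here. Domain extent for 231K against WT was 0.814 at the strict threshold and 0.939 with joining over 10 kb. For 232P against WT it was 1.00 with joining over 1 kb. For Tau-KO against WT it was 1.01 with q-values under 0.05, 1.02 with equal numbers of peaks and 1.04 with joining over 1 kb. Ranking by fold enrichment turned the CDKN2B percentile difference to -1.76 for 231K and -0.785 for Tau-KO. In limma on covered percent, genes called rose from 0 to 143 (231K against WT), 547 (232P against WT), 225 (Tau-KO against WT) and 451 (231K against 232P) without the filter on samples with a peak. There limma warned of variances of 0, since most genes have no peak, and these counts are not reliable. Without flanks, 2 genes were called for Tau-KO against WT, and on fold enrichment at the strict threshold, 1 gene for 231K against 232P.

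Quantile normalization reversed covered percent in limma for CDKN2A to 8.56 (232P against WT), 7.23 (Tau-KO against WT) and -2.65 (231K against 232P), and for CDKN2B to 7.85, 6.87 and -1.96. It also turned log2 fold enrichment for 231K against 232P to -0.234 for CDKN2A and -0.0782 for CDKN2B. With start sites only, CDKN2A was at -4.67 for 231K against WT, and CDKN2B at 4.51 for 232P and 3.98 for Tau-KO against WT and -1.05 for 231K against 232P. CDKN2B for Tau-KO against WT was also positive at the strict threshold (2.72), with q-values under 0.05 (1.68) and with equal numbers of peaks (0.908). None of these values of the 2 genes passed in limma, and the cause of the changes was not tested. The other 227 values kept their direction and side of the threshold, but those that follow moved by over 1.5 times. At the strict threshold, covered length was 0.353 for 232P against WT and 3.28 for 231K against 232P, and extent was 0.586 for 232P against WT. With joining over 10 kb, extent was 0.211 for 232P and 0.575 for Tau-KO against WT, and 4.45 for 231K against 232P. Covered percent in limma moved so for CDKN2A to 0.835 (231K), -21.5 (232P) and -10.4 (Tau-KO against WT) at the strict threshold, to -8.18 (232P) and -0.545 (Tau-KO) with equal numbers of peaks, and to -8.29 (Tau-KO) and 7.24 (231K against 232P) with start sites only. For CDKN2B it moved to -4.50 (232P) at the strict threshold, to -3.25 (232P) and 8.31 (231K against 232P) with equal numbers, to 3.46 (231K) with start sites only, and to 0.593 (231K) and -4.54 (Tau-KO) without flanks. Quantile normalization moved log2 fold enrichment to -0.0216 for CDKN2A (232P) and to 0.0658 (231K) and 0.144 (232P) for CDKN2B. Ranking by fold enrichment moved the CDKN2B percentile difference to 0.19 (232P) and -1.95 (231K against 232P). Samples with a peak within 1 kb of the CDKN2B start fell to 1 with an overlap of 500 bp or at the strict threshold.

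Leaving out each replicate gave these ranges of covered length: 0.803 to 1.47 for 231K, 0.385 to 1.03 for 232P and 0.739 to 1.16 for Tau-KO against WT, and 1.10 to 2.95 for 231K against 232P. Extent ranged over 0.959 to 1.14, 0.817 to 1.06, 0.911 to 1.08 and 0.986 to 1.28, in the same order. The percentile difference ranged over -6.49 to 0.3327, -4.24 to 0.559, -3.46 to -1.12 and -4.64 to 2.17 for CDKN2A, and over -5.09 to 6.53, -0.837 to 2.84, -1.03 to 2.84 and -6.09 to 5.53 for CDKN2B. In limma, calls on covered percent ranged over 0 to 8 for 231K, 0 to 8 for 232P and 0 to 8 for Tau-KO against WT. On fold enrichment they ranged over 0 to 6 for 232P against WT, 0 to 3 for Tau-KO against WT and 0 to 5 for 231K against 232P. The samples behind calls on covered percent were WT replicates 1 (5 genes) and 2 (8 genes). On fold enrichment they were WT replicate 2 (2 genes) and 231K replicates 1 (5 and 6 genes) and 2 (3 genes). CDKN2A and CDKN2B were not called. Covered percent for 231K against WT ranged over -7.13 to 20.1 for CDKN2A and -7.997 to 21.3 for CDKN2B. For 232P against WT these ranges were -27.2 to 1.03 and -19.5 to 5.28, for Tau-KO against WT -11.02 to 4.42 and -8.93 to 8.46, and for 231K against 232P 5.45 to 33.7 and -0.892 to 28.4. Log2 fold enrichment ranged over -0.472 to 0.123 and -0.249 to 0.539 for 231K against WT, -0.417 to 0.0116 and -0.0386 to 0.0587 for 232P against WT, -0.337 to -0.0397 and -0.12 to 0.275 for Tau-KO against WT, and -0.27 to 0.326 and -0.259 to 0.529 for 231K against 232P.

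With the replicate number as a block, 9 genes were called for Tau-KO against WT on covered percent, all lower, and neither CDKN2A nor CDKN2B was among them. Same-numbered samples deviated together on covered percent (correlations of 0.689 to 0.738) and less on fold enrichment (0.0824 to 0.111). The labels give a replicate letter, with a number for the Tau-KO lines only, there are 2 pairs, and the smallest peak width differs with it (175 to 179 bp in replicates 1, 240 to 262 bp in replicates 2), so the pairing is a hint from the data. Depth limits what the lists show: a missing peak is a peak below the threshold of its list.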
